A study of Mus musculus with 19 samples.

Results

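Retnla, Timd4, Lyve1, Cd163, Pla2g2d, Barx2, Cbr2, Clec10a, Mgl2 and Ccl24 are genes whose transcripts were highest in the monocyte/macrophage cells of day 0, most of them known from resident macrophages, and they were followed at the site of a burn/tenotomy injury from day 0 to day 21. They are 10 of the 27998 genes in the files. They were chosen because their levels in the monocyte/macrophage cells of injured libraries were lower than at day 0, so the fall itself is given below as a description and is not tested. Levels were read in cells with at least 1 UMI of Csf1r, the receptor for the macrophage growth factor CSF1, and no UMI of Pdgfra, a receptor of mesenchymal cells. There were 15313 such cells among the 39541 cells kept from 19 libraries. A UMI (unique molecular identifier) is a tag that lets PCR copies of a captured transcript count once.

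Resident macrophages live in connective tissue before any injury and clear debris and dying cells with scavenger receptors, lectins and phosphatidylserine receptors. Part of this gene program is raised by interleukin-4, which signals through STAT6, and it is often called alternative activation. After injury, blood monocytes enter the tissue and become macrophages with a different set of transcripts, which may later take on some of the resident set.

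The libraries held all cells digested from the Achilles tenotomy site of mice with heterotopic ossification, the formation of bone in soft tissue, after a partial-thickness scald burn of the back. Day 0, day 7 and day 21 had 4 libraries each and day 3 had 3. Another 4 came from mice given p7N3, a CD47-activating peptide, at 10 mg/kg i.p. daily from 3 days before to 3 days after injury. The labels list the burn for every library, day 0 included, while the study treats day 0 as uninjured. C57 and LysmCre/Tgfb1fx/fx mice are both named in the labels, without a genotype for any single library, so any effect of deleting Tgfb1 in LysM-expressing myeloid cells cannot be told apart here. No vehicle is named in the labels of the day 7 libraries, and the harvest day of p7N3 replicate 4 comes from the study's own account of its peptide libraries. The study describes its single-cell replicates as a measure of differences between mice. Whether a library is 1 animal or a pool was not found in the sources used here, so that the spread between libraries may be partly technical.

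A day 0 library held 75 to 147 of the selected cells. There were 1293 to 1491 of them in a day 3 library, and 1133 to 1432 in one of day 7. Day 21 libraries held 165 to 290, and p7N3 libraries held 916 to 1477. The selected cells of a day 0 library summed to 324205 to 837210 UMIs and those of a day 3 library to 15210836 to 17810110, so the day 0 sums were the least deep. Levels are given as CPM, the UMIs of a gene scaled to the same total in each library, and 3 counts equal 3.58 to 9.25 CPM in the day 0 libraries. The 6 macrophage markers Adgre1, Fcgr1, Mertk, C1qa, C1qb and C1qc were found in every library, with a summed level of 8840 to 12646 CPM at day 0 and between 5466 and 7089 CPM at day 3. Other cell types also moved with time. The sum of 6 neutrophil markers went from 133 to 503 CPM in day 0 libraries to 3042 to 5876 CPM in those of day 3. The sum of 5 stromal markers went from 2058 to 7387 CPM in day 0 libraries to 11485 to 29830 CPM in those of day 21. The return at day 21 is also given below without a library, in Mrc1 cells and without cells that held neutrophil or dendritic markers, and beyond these values the part of other cell types was not tested.

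Retnla (chr16:48842551-48844461, plus strand of GRCm38) encodes RELM alpha, a small secreted protein induced by interleukin-4 and a common marker of alternative activation. Retnla was at 3501, 5648, 7662 and 4835 CPM in the 4 day 0 libraries. At day 3 it was at 0.790, 0.112 and 0 CPM, and 16 UMIs were found in 4257 cells. It was back at 163, 83.0, 195 and 138 CPM at day 7 and at 188, 789, 425 and 144 CPM at day 21. Relative to its own day 0 level Retnla was thus the member that came nearest to a complete loss, although Pla2g2d and Barx2 had fewer UMIs at day 3, and the day 21 libraries spread over a wider range than those of day 7 and overlapped them. In p7N3 libraries Retnla was at 34.6, 274, 190 and 95.3 CPM, around the day 7 values.

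Few cells carried most Retnla transcripts. At day 0 the cells holding 50% of its UMIs were 4 to 7 of the 37 to 65 positive cells of a library. At day 21 replicate 3, 1 cell held 633 of 694 UMIs (91.2%), and at day 21 replicate 4, 1 cell held 262 of 522 (50.2%). In p7N3 replicate 3, 1 cell held 856 of 1288 UMIs (66.5%). The level of Retnla in these libraries therefore rests on single cells. In CPM, free RNA was also highest for Retnla, the member with the highest level in cells. In day 0 replicate 1, whose file keeps all barcodes, those with 1 to 100 UMIs held Retnla at 599 CPM, against 3501 CPM in the Csf1r+ cells of that library, while the other 9 members were at 3.69 to 64.2 CPM in the same barcodes. Relative to all cells of that library Retnla did not stand apart, at 599 against 616 CPM. Cbr2 was at 64.2 against 69.5 CPM and Barx2 at 5.53 against 5.76 CPM, while Lyve1 was at 39.0 against 85.1 CPM.

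The starts of 3 genes are shown because they mark the extremes of the group means relative to day 0. Retnla had the lowest mean at day 3, and Cbr2 had the highest and Timd4 the lowest mean at day 21. The order of return among the genes is not resolved, as given below. The sequences are 250 bases before to 50 bases after the start site, from RefSeq on GRCm38.p6, which held 6 of the 10 members (Retnla, Timd4, Cd163, Pla2g2d, Cbr2 and Mgl2). Capitals mark matches on either strand to the STAT motif (TTC, any 4 bases, GAA), to GAGGAA (PU.1), to TGCTGA (MAF) and to TTGCNNAA (C/EBP).
Retnla chr16:48842359-48842658, plus strand: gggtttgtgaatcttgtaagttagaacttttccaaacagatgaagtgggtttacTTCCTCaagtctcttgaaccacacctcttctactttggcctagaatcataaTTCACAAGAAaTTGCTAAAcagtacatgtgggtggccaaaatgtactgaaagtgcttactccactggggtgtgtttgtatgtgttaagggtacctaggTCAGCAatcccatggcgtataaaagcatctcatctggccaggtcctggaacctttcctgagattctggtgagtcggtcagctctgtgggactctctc
Cbr2 chr11:120731972-120732271, minus strand: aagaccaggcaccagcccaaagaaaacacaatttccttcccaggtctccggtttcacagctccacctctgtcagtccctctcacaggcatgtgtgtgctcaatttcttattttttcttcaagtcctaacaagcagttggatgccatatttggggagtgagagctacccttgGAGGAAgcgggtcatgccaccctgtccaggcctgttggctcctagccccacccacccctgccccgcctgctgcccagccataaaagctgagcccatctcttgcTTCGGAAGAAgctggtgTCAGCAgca
Timd4 chr11:46810549-46810848, plus strand: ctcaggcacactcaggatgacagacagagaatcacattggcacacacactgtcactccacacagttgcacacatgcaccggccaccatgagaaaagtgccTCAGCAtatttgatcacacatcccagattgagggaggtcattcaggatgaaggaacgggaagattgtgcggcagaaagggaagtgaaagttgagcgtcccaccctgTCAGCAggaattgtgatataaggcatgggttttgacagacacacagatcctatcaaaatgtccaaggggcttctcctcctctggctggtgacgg

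The Retnla start held a match to each of the 4 motifs, with the STAT and C/EBP matches separated by a single base. Cbr2 held a STAT, a PU.1 and a MAF match and Timd4 held 2 MAF matches alone. Of the other starts, Pla2g2d and Mgl2 held a PU.1 match and Cd163 held none. Among 32841 promoters of the same length, 6.95% held the STAT letters, 28.3% the PU.1 letters, 19.5% the MAF letters and 10.8% the C/EBP letters. A match is a run of letters and not a measured binding site.

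Timd4, Lyve1 and Cd163 encode receptors with which resident macrophages take up their surroundings. Timd4 (chr11:46810800-46844332, plus strand) binds phosphatidylserine on dying cells. It was at 66.9, 84.1, 86.4 and 67.7 CPM at day 0, and the highest injured library was at 4.42 CPM. The day 3 libraries were at 1.52, 1.12 and 1.97 CPM and those of day 7 at 0.663, 2.02, 0.759 and 0.414 CPM. At day 21 they were at 0.732, 2.59, 3.06 and 4.42 CPM, which rest on 28 UMIs in all and overlap both earlier times. In replicate 4, the highest, 1 cell held 12 of the 16 UMIs. A return of Timd4 beyond these few UMIs was not detectable at this depth.

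Lyve1 (chr7:110850607-110863239, minus strand), a hyaluronan receptor shared with lymphatic endothelium, was at 517, 434, 620 and 343 CPM at day 0. It was at 15.0, 29.6 and 10.6 CPM at day 3, at 10.0, 8.96, 29.8 and 6.53 CPM at day 7 and at 41.0, 47.6, 22.0 and 14.1 CPM at day 21. The 3 injured time points overlapped, and 2 of the 4 day 21 libraries were above every day 7 library. The 4 lymphatic endothelial markers Prox1, Pdpn, Mmrn1 and Flt4 summed to 11.9 to 116 CPM in the day 0 cells, and between 59.0 and 83.3 CPM at day 21.

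Cd163 (chr6:124304656-124330527, plus strand) takes up hemoglobin bound to haptoglobin. It was at 432, 379, 725 and 685 CPM at day 0, at 60.2, 104 and 56.5 CPM at day 3 and at 29.0, 11.9, 32.6 and 18.8 CPM at day 7. The highest day 7 library was thus below the lowest of day 3. At day 21 it was at 38.4, 84.4, 55.7 and 17.7 CPM and overlapped both earlier times.

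Clec10a (chr11:70156197-70170834, plus strand) and Mgl2 (chr11:70130329-70137550, plus strand) are neighbours that encode galactose-type C-type lectins, MGL1 and MGL2, which bind sugars for uptake. Clec10a was at 494, 544, 654 and 573 CPM at day 0. It was at 73.3, 110 and 68.5 CPM at day 3, at 157, 89.3, 148 and 88.5 CPM at day 7 and at 155, 188, 203 and 92.2 CPM at day 21. Clec10a thus kept a level in every injured library, with the day 7 and day 21 libraries overlapping.

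Mgl2 fell much further than its neighbour at first. It was at 575, 586, 740.3 and 593 CPM at day 0 and at 9.37, 8.70 and 8.02 CPM at day 3. The day 7 libraries were at 86.4, 40.9, 70.8 and 40.7 CPM and those of day 21 at 137, 171, 137 and 64.0 CPM. The lowest day 7 library was above the highest of day 3, and 3 of the 4 day 21 libraries were above every day 7 library. The transcripts of Clec10a and Mgl2 share 95 stretches of 98 bases, the length of the cDNA read, which are 2.76% of those of Clec10a and 4.13% of those of Mgl2.

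Ccl24 and Pla2g2d encode secreted proteins. Ccl24 (chr5:135569937-135573049, minus strand), or eotaxin-2, attracts eosinophils. It was at 367, 331, 555 and 486 CPM at day 0, at 25, 27.0 and 25.6 CPM at day 3, at 35.4, 29.9, 37.5 and 22.9 CPM at day 7 and at 83.4, 64.7, 95.5 and 35.0 CPM at day 21. The first 3 day 21 libraries were above all day 7 libraries and replicate 4 was among them. Pla2g2d (chr4:138775735-138782046, plus strand), a secreted phospholipase A2, was at 46.6, 92.0, 49.4 and 70.1 CPM at day 0 and was found as 3 UMIs at day 3. It was at 1.89, 1.01, 0.911 and 0.414 CPM at day 7 and at 5.49, 4.66, 16.5 and 1.38 CPM at day 21, so that replicate 3 was far above the others.

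Cbr2 (chr11:120729489-120732114, minus strand) encodes a carbonyl reductase and had the highest mean at day 21 relative to day 0. It was at 416, 507, 700.2 and 513 CPM at day 0, at 137, 191 and 112 CPM at day 3 and at 89.3, 63.1, 122 and 69.7 CPM at day 7. At day 21 it was at 229, 312, 251 and 151 CPM. Cbr2 was the only member whose 4 day 21 libraries were all above the 4 day 7 libraries, and none of them reached the lowest day 0 library. The Cbr2 transcripts share 5.52% of their 98-base stretches with Gm11771, and no stretch of the other 7 members outside the lectin pair was shared.

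Barx2 (chr9:31846044-31913462, minus strand) encodes a homeobox transcription factor. It was at 26.3, 23.7, 74.0 and 33.9 CPM at day 0, with replicate 3 highest, at 7 UMIs in all of day 3, at 1.04, 6.72, 3.8 and 2.80 CPM at day 7 and at 2.93, 2.59, 4.29 and 2.48 CPM at day 21. It was the only member whose day 21 mean (3.07 CPM) was not above its day 7 mean (3.59 CPM). Barx2 went the other way in Pdgfra+ cells without Csf1r or Ptprc, where it was at 1.5 CPM at day 0, 27.9 CPM at day 7 and 35.4 CPM at day 21. Of the 123 Barx2 UMIs of the Csf1r+ cells at day 7, 83 were in cells without a UMI of Mrc1, Flt3 or Cd209a, whose 5 stromal markers summed to 13421 CPM, against 3560 CPM in the Mrc1 cells.

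**Figure D1:**
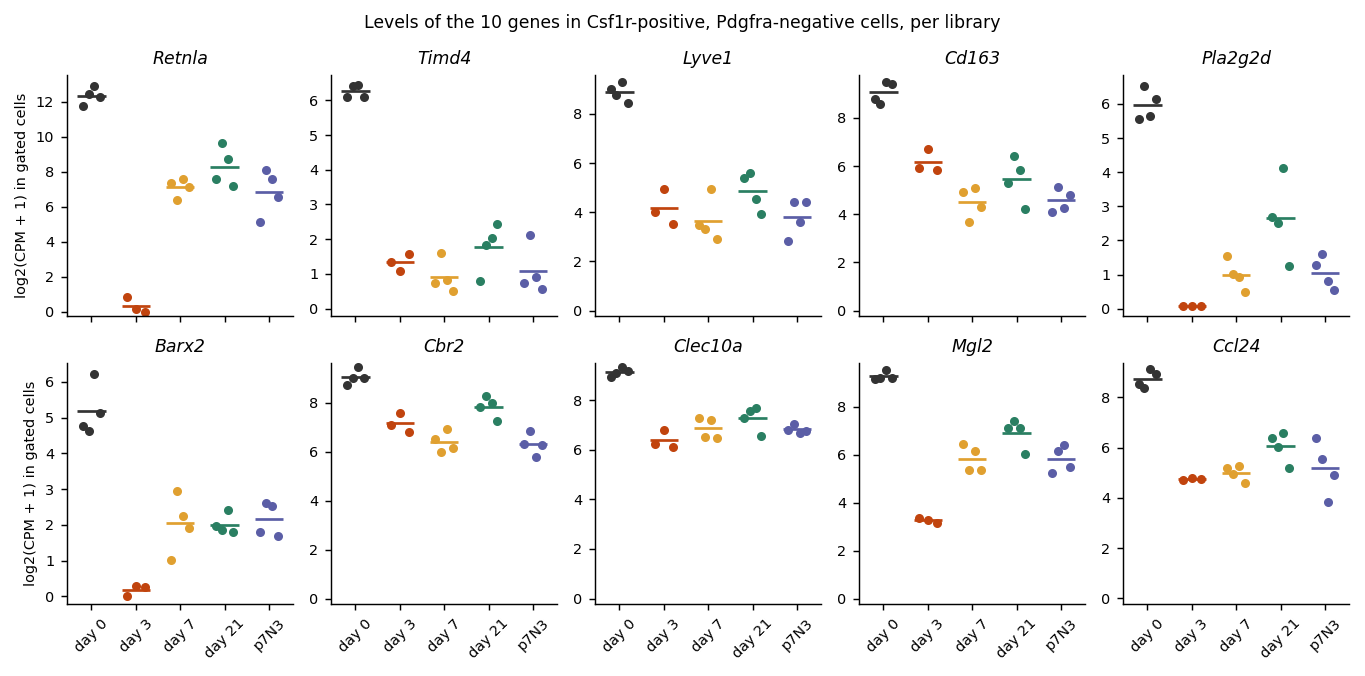
Level of each of the 10 genes as log2(CPM + 1) in Csf1r+ Pdgfra- cells by group, with a point per library and a line at the mean of the points of a group. In every panel the day 0 libraries lie above all others; Retnla is at 0.790 CPM or less at day 3, and Cbr2 is the only gene whose day 21 points all lie above those of day 7.

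For 10 of 10 genes every library of day 3, day 7 and day 21 was below every day 0 library. Among all genes tested 29.4%, 21.2% and 16.0% had this property at day 3, day 7 and day 21, and 50.1% did not overlap in either direction at day 3. Since injured libraries below day 0 chose the members nothing is read from their count. The median level of the 10 genes was 2.93% of the day 0 mean at day 3, 5.69% at day 7 and 9.85% at day 21. By library, the day 21 median was 8.53%, 14.7%, 16.4% and 6.04% in replicates 1 to 4.

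The return by day 21, as the mean of 4 libraries in percent of the day 0 mean with its lowest and highest library, differed widely among the genes. Cbr2 reached 44.1% (28.3 to 58.5) and Clec10a 28.2% (16.3 to 35.9). Mgl2 was at 20.4% (10.3 to 27.4), Ccl24 at 16.0% (8.06 to 22.0) and Pla2g2d at 10.9% (2.14 to 25.6). The uptake receptors Cd163 and Lyve1 reached 8.84% (3.18 to 15.2) and 6.51% (2.94 to 9.95), and Retnla reached 7.14% (2.66 to 14.6) and Barx2 7.78% (6.29 to 10.9). Timd4 was at 3.54% (0.959 to 5.79). The ranges of neighbours in this order overlapped throughout, so that their order is not resolved. The range of Cbr2 did not overlap those of the 8 genes from Mgl2 downwards. These ranges divide by the day 0 mean and leave out the spread of the day 0 libraries, so the lack of overlap does not resolve the order either. Cbr2 stood first, Clec10a second and Timd4 last in the main analysis and under each of the 16 alternatives.

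The path to day 21 also differed. Cbr2 was at 27.4% of day 0 at day 3 and 16.1% at day 7 before it rose to 44.1%, and Cd163 went from 13.3% to 4.15% and 8.84%. Clec10a was at 14.8%, 21.3% and 28.2%, and Mgl2 at 1.40%, 9.57% and 20.4%. All day 21 libraries were above all day 7 libraries for 1 of 10 genes, against 16.6% of all genes tested. The mean was higher at day 21 for 9 of 10, while the median log2 ratio of CPM over all genes tested was 0.07. The share of all genes with a higher mean was not counted.

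Day 21 replicate 4 was the lowest of its group for 9 of the 10 genes, Timd4 being the exception, and it also had the most stromal transcripts in the selected cells. Without it the return was 49.4% for Cbr2, 32.2% for Clec10a and 2.79% for Timd4, with a median of 12.3%. With replicates 1 to 3 of each group alone the median was 12.9%. In cells with at least 1 UMI of Mrc1, the mannose receptor, which carry fewer stromal transcripts, Cbr2 was at 59.6% and the median at 11.6%, while Timd4 was at 2.70% and Barx2 at 4.27%. With cells that held neutrophil or dendritic markers removed, Cbr2 was at 44.9%, Timd4 at 1.28% and the median at 8.74%. These markers were counted before thinning, so deeper cells could be removed more readily, and the removal is not a clean separation of cell types. Barx2 was at 16.3% where cells were selected after thinning. Pla2g2d was at 5.95% without day 21 replicate 3.

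**Figure D2:**
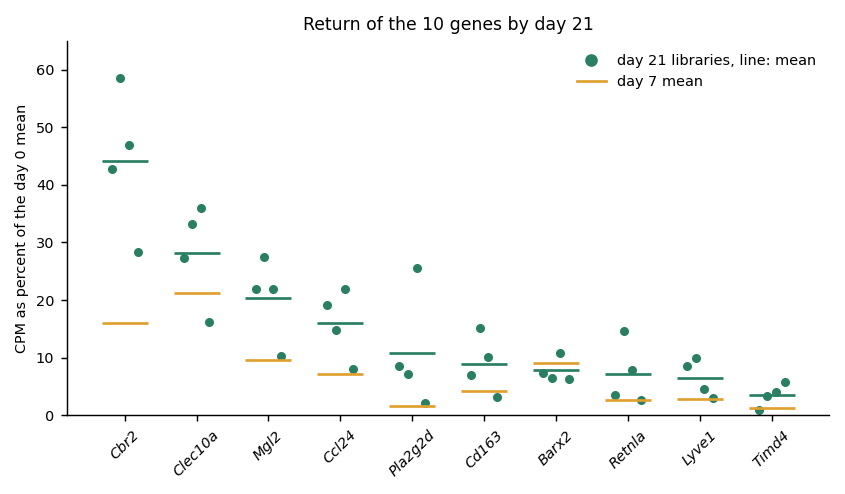
CPM at day 21 as percent of the day 0 mean of the same gene, with a green point per library, a green line at their mean and an orange line at the day 7 mean, in order of the day 21 mean. Cbr2 is at 44.1% and Timd4 at 3.54%, and the orange line is above the green for Barx2 alone.

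A level can fall because fewer cells hold the transcript or because each positive cell holds less. To separate these, each cell was thinned to 1500 UMIs and 27 shallower day 0 cells were left out. Cells with a Retnla UMI made up 42.4% of the day 0 cells (mean of 4 libraries), 1.69% at day 7 and 5.42% at day 21. For Mgl2 the shares were 54.6%, 5.06% and 14.7%, for Cbr2 50.3%, 10.6% and 26.1%, and for Clec10a 45.5%, 14.1% and 21.1%. Cells with Lyve1 went from 44.4% to 1.19% and 4.0%, those with Cd163 from 43.9% to 2.94% and 6.53% and those with Ccl24 from 39.1% to 3.26% and 7.34%. Timd4 and Pla2g2d were found in 12.3% and 11.8% of day 0 cells and in 0.54% and 0.94% at day 21. No Pla2g2d UMI was left in the 4257 thinned day 3 cells, which allows a share of up to 0.0705% over the pooled cells of 3 libraries, and 3 UMIs were present before thinning.

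The share of positive cells differed by a larger factor than the UMIs per positive cell in each gene. A positive cell holds at least 1 UMI by definition. In genes of low level, such as Barx2 with a ratio of 1.17, the UMIs per positive cell therefore had little room to fall. For these genes the comparison cannot tell the 2 readings apart. From day 0 to day 21 the share with a Retnla UMI was 7.81-fold lower and the UMIs per positive cell 1.45-fold lower. For Cd163 these ratios were 6.73 and 1.52 and for Clec10a 2.15 and 1.38. For Cbr2 they were 1.93 and 1.07, for Mgl2 3.71 and 1.09 and for Ccl24 5.32 and 1.02. The shares of Timd4 and Barx2 were 22.9-fold and 25.4-fold lower, on 4 and 2 positive cells at day 21, and that of Lyve1 was 11.1-fold lower. The shares are means of libraries, while the UMIs per positive cell are pooled over the cells of a group. The ratios of the latter thus carry no spread between libraries. For Retnla this ratio also hangs on single cells, since 1 cell held 91.2% of its UMIs before thinning in day 21 replicate 3. At a fixed number of UMIs per cell a fall in share can still stem from less RNA of the gene in every cell, so the 2 readings are not fully separate. The shares also depend on which cells were selected, which was done before thinning. Selection after thinning kept 108 of 147 cells in day 0 replicate 1 and 158 of 251 in day 21 replicate 1. At day 21, 288 of 877 selected cells lacked Mrc1, Flt3 and Cd209a, and their stromal markers summed to 44107 CPM. The part of these cells in the shares was not tested.

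Cells that should lack these genes gave the background. In Pdgfra+ cells without Csf1r or Ptprc, thinned in the same way and of greater depth (medians of 10820.5 to 18897.5 UMIs per cell at day 7, against 4618 to 6293 in the Csf1r+ cells), 2.89% of day 0 cells held a Retnla UMI and at most 0.65% any other member. At day 7 the share with Retnla was 0.285% in these cells and at day 21 0.701%, below the 1.69% and 5.42% of the Csf1r+ cells. For Timd4 the background was 0.0397% at day 7 and 0 of 1662 cells at day 21, which allows a share of up to 0.181%. Barx2 was the exception, since it was found in 4.02% of Pdgfra+ cells at day 7 and 3.29% at day 21, above its 0.25% in the Csf1r+ cells of both days, so that these cells give no background for Barx2. Lyve1 was found in 1.08% of Cdh5+ endothelial cells at day 0, 8.06% at day 7 and 4.36% at day 21, above the 1.19% and 4.0% of the Csf1r+ cells at the injured times. Intervals and limits on these shares cover counting error only.

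**Figure D3:**
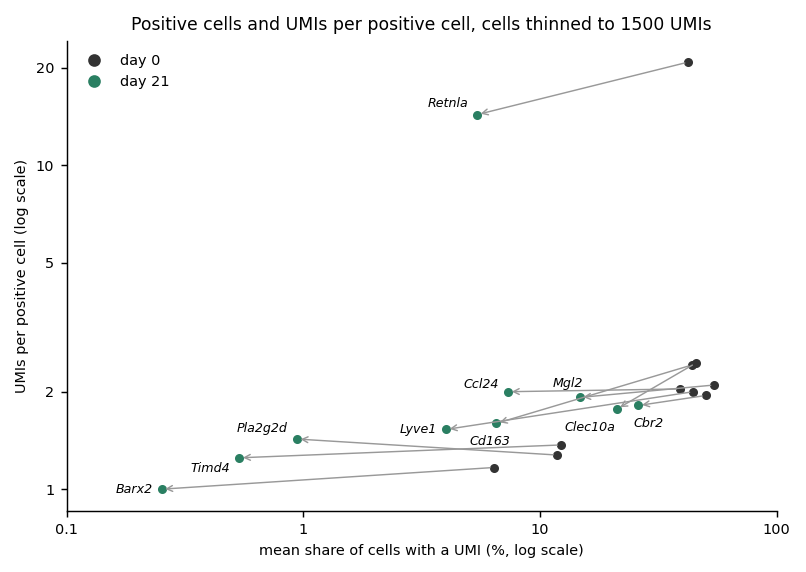
Mean percent of Csf1r+ Pdgfra- cells with at least 1 UMI of a gene (log axis) against the UMIs per positive cell (log axis) after thinning to 1500 UMIs. The percent is a mean of libraries, and the UMIs are pooled over the positive cells of a group. An arrow runs from day 0 (dark) to day 21 (green) for each gene. The arrows run mostly sideways: Retnla moves from 42.4% to 5.42% of cells and from 20.9 to 14.4 UMIs per positive cell.

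At day 0 the genes were found together in the same cells. After thinning, 65.9% to 84.6% of the cells of a day 0 library held at least 2 of the 10 genes and 34.1% to 45.1% held at least 5. If each gene were detected independently of the others, 16.1% to 33.0% would hold at least 5. At least 3 were found in 59.4% to 76.9% of cells, below the 67.5% to 83.1% of independent detection, so that cells with at least 5 members were more common and cells with at least 3 less common than independent detection gives. The variance of the number of members per cell was 2.66 times (mean of libraries; 1.95 to 2.99) that given by independent detection. The strongest day 0 pairs among those with at least 30 positive cells each were Clec10a with Mgl2, with an odds ratio of 5.41, and Retnla with Clec10a, with 5.35. Of 36 such pairs 34 had an odds ratio above 1, with a median of 2.42.

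Cells with several members became rare after injury. Cells with at least 2 members made up 5.09% to 9.79% of a day 3 library and 5.03% to 11.3% of a day 7 library. Day 21 libraries had 13.8% to 28.7% of them. Cells with at least 3 made up 1.43% to 2.08% of a day 3 library, where independent detection gives 0.123% to 0.436%. They made up 1.18% to 3.56% of a day 7 library (0.167% to 0.878% by independent detection) and 6.21% to 15.8% of a day 21 library (1.07% to 7.37%). Cells without any member were 8.79% to 21.7% of a day 0 library, 64.7% to 77.8% of a day 7 library and 48.0% to 65.5% of a day 21 library. The transcripts that remained were therefore not spread evenly over the cells. The variance ratio was 1.47 at day 3, 1.59 at day 7 and 2.19 at day 21 on average, and all 21 pairs that could be counted at day 7 and at day 21 had an odds ratio above 1, with medians of 3.95 and 4.68. At day 3, 14 of 15 pairs were above 1, with a median of 3.32 and a lowest of 0.43. The 21 pairs of day 7 and day 21 were the same, while 36 other or further pairs entered at day 0 and 15 at day 3. The medians of day 0 and day 3 thus cannot be set against the later ones. The highest odds ratios were those of Lyve1 with Cd163 at day 7, at 17.4, and Lyve1 with Cbr2 at day 21, at 10.3. Differences in size or quality between cells of a library and its mixture of cell types enter these ratios as well.

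**Figure D4:**
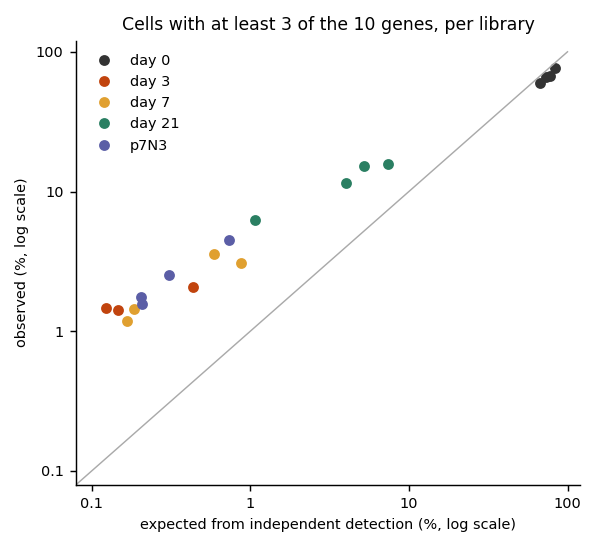
Percent of the thinned Csf1r+ Pdgfra- cells of a library with at least 3 of the 10 genes (vertical log axis) against the percent given by independent detection (horizontal log axis), with a point per library and a line where both are equal. Day 0 libraries lie slightly below the line, at 59.4% to 76.9%, and all injured libraries above it.

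Folr2, a folate receptor of resident macrophages, was counted in the cells that held a member. At day 21, 82.4% of the Lyve1+ cells, 60.9% of the Cbr2+ cells, 56.0% of the Mgl2+ cells and 52.0% of the Clec10a+ cells held Folr2, against 22.6% of all selected cells. At day 7 these shares were 56.7%, 47.6%, 21.2% and 31.3%, against 15.0%. The shares pool the cells of 4 libraries. In day 7 replicates 1 to 4, 13 of 23, 5 of 7, 16 of 25 and 0 of 5 Lyve1+ cells held Folr2. Not every member had a raised share. Of the Barx2+ cells of these libraries, 0 of 1, 1 of 3, 0 of 5 and 0 of 3 held Folr2. At day 3, 2 of 39 Mgl2+ cells (5.13%) held Folr2, against 14.8% of all selected cells. Mgl2+ cells often held the MHC class II gene H2-Aa, found in 91.2% of them at day 7 and 92.0% at day 21, against 54.4% and 54.7% of all cells. This was not particular to Mgl2. In day 21 replicate 1, H2-Aa was in 40 of 41 Mgl2+ cells, 50 of 56 Clec10a+ cells and 10 of 12 Retnla+ cells. It was in 47 of 64 Cbr2+ cells and in 148 of all 251 cells there. In day 21 replicate 4, H2-Aa was in 26 of 30 Mgl2+ cells, 31 of 39 Clec10a+ cells and 5 of 6 Retnla+ cells. Of the Cbr2+ cells of replicate 4, 27 of 56 held it, near the share in all cells, 137 of 290. Arg1, the arginase of inflammatory and wound macrophages, was found in 26.1% of the Ccl24+ cells at day 3 and in 17.2% of all cells, and in 5.91% of the Cd163+ cells. In replicates 1 to 3, 13 of 45, 5 of 50 and 17 of 39 Ccl24+ cells held Arg1. Among all cells these counts were 215 of 1473, 187 of 1491 and 332 of 1293, so the Ccl24+ share was not higher in replicate 2.

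Because Mgl2 and Clec10a are also made by dendritic cells, the selected cells were divided by Flt3 and Cd209a, both markers of dendritic cells, a division chosen after these data had been seen. Cells with at least 1 UMI of Flt3 or Cd209a were 83 at day 0, 520 at day 3, 471 at day 7, 88 at day 21 and 489 with p7N3. They were compared with cells that held Mrc1 and neither of the former. The markers did not isolate dendritic cells at day 0, where 81 of the 83 cells were taken through Cd209a and their C1qa, C1qb and C1qc sum was 9886 CPM, against 13114 CPM in the Mrc1 cells. At day 7 this sum was 3802 against 12433 CPM, and H2-Aa, H2-Ab1, H2-Eb1 and Cd74, of the MHC class II pathway, summed to 66917 against 19398 CPM. At day 21 the C1q sum was again high, at 9630 against 14795 CPM. Of the 88 cells of day 21, 17 held Flt3, against 211 of the 471 cells of day 7. Their Mrc1 level was 722 CPM at day 21, against 696 CPM in the Mrc1 cells. At day 7 it was 250 against 474 CPM. The cells taken through Flt3 or Cd209a are called Flt3/Cd209a cells below, although their makeup was not the same at each time.

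At day 0 the members were found in both kinds of cells. The edgeR comparison with the library as a block called none of the 9 members tested, and 0.0367% of 2722 genes were called higher in Flt3/Cd209a cells and 0.00% lower. At an unadjusted p under 0.05, 168 of those genes passed. Few cells were available at day 0, so a difference of moderate size could be missed. Mgl2 was at 1001 ± 292 CPM (SD, n = 4) in Flt3/Cd209a cells and 743 ± 70.4 CPM in Mrc1 cells. Clec10a was higher in the Flt3/Cd209a cells of 4 of 4 libraries (log2 difference 0.68), Mgl2 of 3 (0.54) and Lyve1 of 0 (-0.71). The edgeR adjusted p was 0.746 for each.

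At day 7 the levels of both lectins were higher in Flt3/Cd209a cells than in Mrc1 cells. In the former Mgl2 was at 364, 300, 587 and 306 CPM in the 4 libraries, and in the Mrc1 cells at 70.3, 24.3, 51.1 and 25.4 CPM, without overlap. The log2 difference was 3.26 (SE 0.171, edgeR adjusted p = 2.57e-08), and 1208 of 2137 Mgl2 UMIs (56.5%) lay in 9.25% of the cells. Clec10a was higher by 1.5 (SE 0.101, adjusted p = 2.83e-07) and Cd163 by 0.73 (SE 0.158, adjusted p = 0.00420), each in 4 of 4 libraries. Most Clec10a UMIs were still in the Mrc1 cells, with 2554 of 4280 (59.7%), against 1286 (30.0%) in Flt3/Cd209a cells. Cbr2 and Ccl24 were lower in Flt3/Cd209a cells in 4 of 4 libraries. Their log2 differences were -1.15 (SE 0.174, adjusted p = 0.000314) and -1.49 (SE 0.203, adjusted p = 0.000136). Thus 3 of 7 members tested were called higher, against 12.4% of all genes, and 2 lower, against 10.8%. Without the library as a block the calls of Cd163 and Ccl24 were lost. Cells without Mrc1, Flt3 or Cd209a were outside the comparison and held 499 of the 1109 Ccl24 UMIs of day 7 (45.0%).

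Mgl2 and Clec10a were higher and Ccl24 was lower in Flt3/Cd209a cells at day 3 and with p7N3 as well. At day 3, Mgl2 (3.05), Timd4 (3.90) and Clec10a (0.99) were higher in Flt3/Cd209a cells by these log2 differences and Ccl24 was lower (-1.0), 3 and 1 of 7 tested against 8.57% and 6.09% of all genes. Of the 77 Timd4 UMIs of day 3, 53 were in Flt3/Cd209a cells and 16 in Mrc1 cells. Timd4 was at 8.75 ± 5.30 CPM (SD, n = 3) in the former and 0.51 ± 0.38 CPM in the latter. It therefore passed the low-count filter only through the cells where it was high. Its call, counted among the 3 higher, is a description and gives no support. In day 3 replicate 3, 1 of the selected cells held 12 of 30 Timd4 UMIs. Without day 3 replicate 2, 4 members were called lower instead of 1, and without replicate 3 there were 2. With p7N3, Mgl2 (2.72), Clec10a (1.48) and Cd163 (0.84) were higher and Cbr2 (-0.81) and Ccl24 (-2.61) lower, against 14.9% and 11.8% of all genes, and without the block the calls of Cd163 and Cbr2 were lost. Cells outside the comparison held 787 of the 1458 Ccl24 UMIs with p7N3 (54.0%).

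At day 21 the difference of Ccl24 between the 2 gates had the other sign, while the Flt3/Cd209a cells were of another makeup than at day 7. Ccl24 was at 155, 174, 416 and 133 CPM in the Flt3/Cd209a cells and at 103, 71.8, 105 and 64.9 CPM in the Mrc1 cells, higher in 4 of 4 libraries (log2 difference 1.33, SE 0.220, adjusted p = 0.00569). Mgl2 was still higher in the former (1.75, adjusted p = 2.56e-05), as were Clec10a (1.29, adjusted p = 0.00107), Cd163 (1.53, adjusted p = 0.00288) and Pla2g2d (2.60, adjusted p = 0.0323). None was lower, and 5 of 8 tested were higher, against 1.54% of all genes. Without the library as a block 2 of them, Clec10a and Mgl2, were called. Pla2g2d rested on 24 UMIs in Flt3/Cd209a cells and 28 in Mrc1 cells, and was not called without day 21 replicate 1 or without replicate 3. Ccl24 rested on 149 UMIs in the 88 Flt3/Cd209a cells. In replicate 3, where its level in them was highest, 1 of the selected cells held 40 of 156 Ccl24 UMIs, and the kind of this cell was not examined. Cbr2 was no longer lower, at 446 ± 36.5 against 407 ± 99.2 CPM. Of the 28 Timd4 UMIs of day 21, 22 were in Flt3/Cd209a cells, 12 of them in 1 cell of replicate 4.

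The change between day 7 and day 21 in the difference between the 2 kinds of cells was tested as an interaction in edgeR. It was higher at day 21 for Ccl24 by 2.80 on the log2 scale (SE 0.314, adjusted p = 0.000399) and for Cbr2 by 1.38 (SE 0.265, adjusted p = 0.0166), and lower for Mgl2 by -1.54 (SE 0.245, adjusted p = 0.00485). Of 7857 genes, 0.815% were called higher and 0.458% lower. The other 6 members tested were not called, with Retnla at 3.03 (SE 1.24, adjusted p = 0.317). The makeup of the Flt3/Cd209a cells differed between these days, as their C1q sums, Mrc1 levels and counts of Flt3+ cells show. The part of this makeup in the interaction was not tested.

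**Figure D5:**
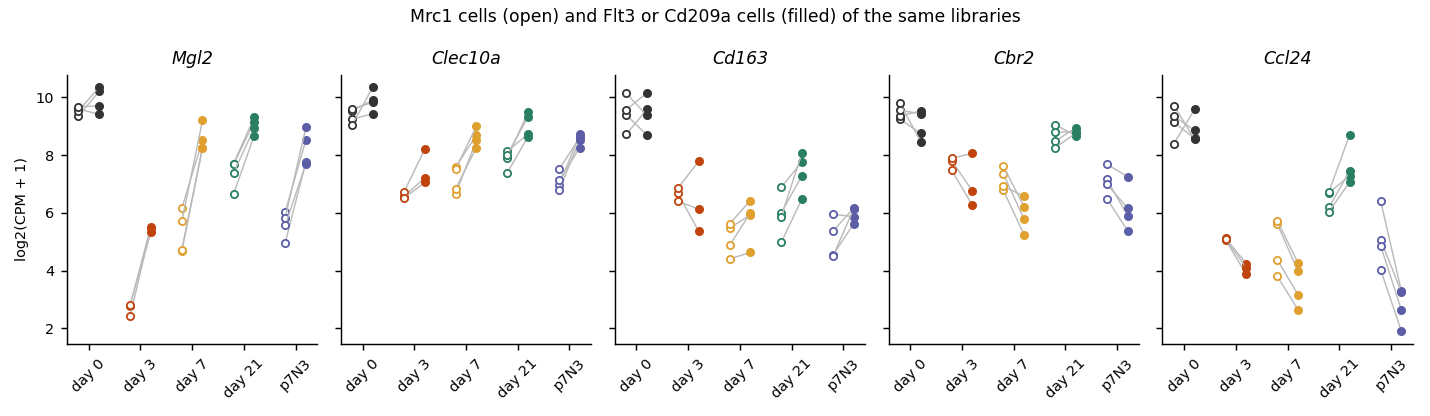
Level as log2(CPM + 1) of 5 genes in Mrc1 cells (open points) and Flt3/Cd209a cells (filled points), with a line joining the points of a library. Mgl2 is higher in the filled points of every injured library, and Ccl24 is lower in them at day 3, day 7 and with p7N3 and higher at day 21.

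The p7N3 peptide was given to ask whether CD47 signalling changes the cells of the injury site at day 7. None of the members differed between p7N3 and day 7 libraries at the threshold. The members tested were 8, since Timd4 and Pla2g2d were below the filter on low counts, and edgeR called none of them and none of 12128 genes (0.00% of all genes), with 1055 genes at an unadjusted p under 0.05. DESeq2 called 16 genes, none of them a member.

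Ccl24 had the largest estimate. It was at 82.5, 45.2, 13.4 and 29.5 CPM with p7N3, a wide spread around the day 7 libraries. In p7N3 replicate 1 the cells holding 50% of its 761 UMIs were 4 of 75 positive cells, and in replicate 2 a single cell held 164 of 418 (39.2%). The estimate was a log2 difference of 0.46 (95% interval -0.48 to 1.40, adjusted p = 0.788). Clec10a had the narrowest interval, -0.10 (-0.51 to 0.31, adjusted p = 0.897), and was at 112, 131, 102 and 108 CPM with p7N3. Cbr2 was at -0.09 (-0.63 to 0.44), Mgl2 at -0.03 (-0.69 to 0.64), Cd163 at 0.05 (-0.64 to 0.75) and Retnla at 0.03 (-1.06 to 1.13). Changes of 2-fold in Retnla, Lyve1, Barx2 and Ccl24 in at least 1 direction are thus within the intervals, while for Clec10a, Cbr2, Mgl2 and Cd163 they are outside. Without the filter Timd4 was at 0.52 (adjusted p = 0.822) and Pla2g2d at 0.17 (adjusted p = 0.945). All 10 genes overlapped between the p7N3 and the day 7 libraries, while 2.73% of the genes tested were higher without overlap and 1.91% lower.

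Other genes of resident macrophages were compared with day 0 by the same test. Of 26 listed genes, 21 of 25 tested were lower at day 3, 20 of 26 at day 7 and 21 of 24 at day 21, against 26.4%, 17.2% and 12.3% of all genes tested, with 2, 2 and 3 higher, against 23.8%, 16.8% and 11.5%. This list was chosen with earlier results of these data known. Its counts against day 0 are therefore a description and give no independent support for the fall of the members. F13a1, the coagulation factor XIII A chain, fell by 2.62 on the log2 scale at day 7 (1270 ± 240 to 180 ± 32.4 CPM; adjusted p = 7.41e-06) and by 2.06 at day 21 (adjusted p = 0.000329). Pf4, a platelet chemokine, fell by 0.87 at day 21 (adjusted p = 0.00636), and Sepp1, the selenoprotein P gene, by 0.77 (adjusted p = 0.0184). Ccl8, a monocyte chemoattractant, went up, from 966 ± 351 CPM to 2722 ± 865 CPM at day 7 (log2 1.69, adjusted p = 0.000891) and 2526 ± 323 CPM at day 21 (1.49, adjusted p = 0.00144). The median log2 difference of this list was -1.81 at day 7 and -1.58 at day 21, and that of all genes tested 0.00 and -0.01. These differences are relative to TMM factors; on the plain CPM scale all genes sit lower against day 0 by -0.14, -0.20 and -0.10 (log2) at day 3, day 7 and day 21.

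From day 7 to day 21, 7 of the 26 genes of that list rose, against 16.8% of all genes, and 2 fell, against 11.5%. F13a1 was among those that rose, by 0.62 (SE 0.194, adjusted p = 0.0348). The count of genes that rose was 3 to 9 when single libraries were left out, 3 of them without day 21 replicate 1 and 4 without day 7 replicate 2 or 4 or day 21 replicate 2 or 3, so that it was not resolved from the share among all genes. Between p7N3 and day 7, 0 of the 26 passed the adjusted threshold and 4 were at an unadjusted p under 0.05.

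Genes of the interleukin-4 response went both ways against day 0. Of 13 listed genes, 4 of 8 tested were higher and 2 lower at day 3, against 23.8% and 26.4% of all genes. There were 2 and 2 of 10 at day 7, against 16.8% and 17.2%, and 2 and 3 of 9 at day 21, against 11.5% and 12.3%. Il4ra, the interleukin-4 receptor chain, rose by 1.28 at day 3 (55.1 ± 10.7 to 123 ± 7.03 CPM; adjusted p = 0.000244), by 0.65 at day 7 (adjusted p = 0.00963) and by 1.08 at day 21 (adjusted p = 0.00203), while Stat6 was not called at any time. Arg1 had no UMI in the day 0 cells and was at 375 ± 205 CPM at day 3, 78.2 ± 48.4 CPM at day 7 and 21.4 ± 11.6 CPM at day 21. Chil3, a chitinase-like protein also made by neutrophils, rose by 3.95 at day 3 (adjusted p = 0.00235). Retnla was at 16 UMIs in all at day 3, when the mean levels of Arg1, Chil3 and Il4ra were highest. Between p7N3 and day 7, 0 of 12 genes of this list passed the adjusted threshold of edgeR and 6 were at an unadjusted p under 0.05, against 1055 of 12128 among all genes. The median log2 difference of the list was 0.27, against 0.00 for all genes. Il4ra was at 97.3, 108, 123 and 104 CPM with p7N3 and at 83.3, 71.5, 71.1 and 80.7 CPM at day 7, without overlap (log2 0.48, adjusted p = 0.484 in edgeR and 0.00623 in DESeq2). Arg1 was at 190 ± 50.7 CPM with p7N3 (log2 1.27, edgeR adjusted p = 0.528), with overlap of the libraries. The sum of 6 neutrophil markers in the selected cells was 494 to 1100 CPM with p7N3, against 257 to 716 CPM at day 7. That of 5 monocyte markers, Chil3 among them, was 604 to 1190 against 539 to 793 CPM. Both sums overlapped between the groups, and the part of these cell types in the values of the list was not tested.

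Among 13 relatives of the members, 2 of 4 tested were higher at day 3, 1 of 5 at day 7 and 1 of 4 at day 21, against 23.8%, 16.8% and 11.5% of all genes, with 0 lower. Retnlg, a neutrophil gene of the resistin-like family, rose by 4.70 at day 3 (6.87 ± 13.7 to 260 ± 71.9 CPM; adjusted p = 0.000401), together with the neutrophil markers given above. Havcr2, which encodes TIM-3, rose by 1.78, 1.74 and 1.74 at day 3, day 7 and day 21. The carbonyl reductases Cbr1 and Cbr3 were not called, at 27.3 ± 11 and 13.5 ± 7.64 CPM at day 0 and 28.5 ± 4.6 and 16.6 ± 2.81 CPM at day 21.

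Among the 10 genes whose levels over the 19 libraries were most like the mean of the members, out of 5806 genes with at least 20 CPM at day 0, were Enpep, C4b, Nr3c1, Mef2c, Abca9, Tppp, Ltc4s, Pros1 and Fxyd2, with Pearson r of 0.97 to 0.98. Since day 0 stands apart from all injured libraries, r mainly reflects that gap. Nr3c1, the glucocorticoid receptor, was at 136 CPM at day 0, 45.5 CPM at day 7 and 56.5 CPM at day 21 on average. Among the members themselves r was highest for Clec10a (0.99) and lowest for Retnla (0.84). Each member is part of the mean it was compared with, which raises its r, so these values cannot be set against those of other genes.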

How the data were processed

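The authors made droplet libraries of all cells of the site, aligned reads with Cell Ranger (to mm10 per the methods; the processing notes list GRCh38, which does not match the mouse genes in the files) and deposited UMI counts per gene and barcode, not normalized. Here, cells had to pass the study's own limits, 500 genes or more and no more than 25% of UMIs from mitochondrial genes. Cells with Csf1r and without Pdgfra were summed per library and given as CPM. No doublets were removed, although the labels expect 3.9% multiplets, and libraries shared at most 6 barcodes. Shares were read after thinning to 1500 UMIs.

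Tests on the sums used the quasi-likelihood method of edgeR 4.0.16 with TMM factors, a low-count filter and Benjamini-Hochberg adjustment over all genes tested (threshold 0.05) under R 4.3.3, with DESeq2 1.42.0 as an alternative, and Python 3.11.15 was used otherwise. On simulated data with 200 genes changed 2-fold, edgeR recovered 50.5%, 36% and 26% in day 3, day 7 and day 21 against day 0, with 8.18%, 5.26% and 3.70% of its calls false, 64.5% in day 21 against day 7 (5.84% false) and 72.5% in p7N3 against day 7 (8.23% false).

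The members and lists were chosen with earlier results of these data known, and the Flt3/Cd209a comparison and its interaction were added after seeing the data. Named were the 10 members, up to 4 genes per list with the highest mean CPM, and the 10 genes most like the members, of which 1 is not reported here. The few selected cells at day 0, 75 to 147 per library, limit the precision there. Alternatives were other scalings, filters, gates, thinning depths, a replicate block, and each library left out. Genotypes were not analysed here.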

Additional observations from a re-analysis of the deposited data

Results flagged for a closer look

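Among 40 groups of 4 libraries (10 genes in 4 groups), 3 had a library whose gap to the next, divided by the range of the group, was above the 95% critical value of Dixon's test, which about 1 in 20 groups pass by chance. Lyve1 in day 7 replicate 3 was at 29.8 CPM and the next library at 10.0 CPM, a gap of 0.849 of the range. Mgl2 in day 0 replicate 3 was at 740.3 CPM against 593 CPM, a gap of 0.891, and Timd4 in p7N3 replicate 2 was at 3.35 CPM against 0.885 CPM, a gap of 0.856.

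The difference between Flt3/Cd209a cells and Mrc1 cells changed from day 7 to day 21 for 3 genes by the edgeR interaction test. It changed by 2.80 on the log2 scale for Ccl24, by 1.38 for Cbr2 and by -1.54 for Mgl2. The makeup of the Flt3/Cd209a cells also differed between these days, and its part was not tested.

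Barcodes of 1 to 100 UMIs, which no comparison used, held Retnla at 599 CPM in day 0 replicate 1, the level in all cells of that library being 616 CPM. Cbr2 and Barx2 were also near their level in all cells, at 64.2 against 69.5 CPM and 5.53 against 5.76 CPM.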

How the results depend on the processing

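The order of return at day 21 kept Cbr2 first, Clec10a second and Timd4 last under all 16 alternatives, and the median return of 9.85% moved between 7.79% and 14.4%, within the spread of the libraries. No member was called between p7N3 and day 7 under the 19 alternatives, while DESeq2 called 16 of all genes and the replicate block 8. Whether same-numbered day 7 and p7N3 libraries were paired is not known. Their deviations correlated at 0.0752, 0.184, 0.0559 and -0.0803, which cannot exclude a shared run. The replicate block moved the counts of the other resident genes by at most 1. Of the other resident genes, 7 rose from day 7 to day 21, 3 to 9 with single libraries left out, and 4 with cells that held neutrophil or dendritic markers removed; the cause was not tested. The median share of positive cells at day 21 was 13.8% of that at day 0, and 26.5% without thinning, where day 21 cells are deeper. The variance ratio at day 21 was 2.19, and 2.75 without thinning or 2.63 at 3000 UMIs. In Flt3/Cd209a against Mrc1 cells, dropping the library block left 1 gene lower at day 7, 2 higher at day 21 and 1 lower with p7N3, and with single libraries left out the count of lower genes at day 3 was 1 to 4. Day 3 against day 0 with neutrophil and dendritic marker cells removed was not run, since the removal left 4, 3 and 0 cells in the 3 libraries of day 3. A cell was removed if it held at least 2 of these markers before thinning. Barx2 at day 21, at 7.78% of day 0, lay between 4.27% and 16.3%. Timd4 at day 21 rests on 28 UMIs.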
